A study of Schizosaccharomyces pombe with 3 samples.

Results

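The core histone genes of *S. pombe* were examined in the transcriptomes of wild type cells (strain 972h-) grown to mid-log phase in Synthetic Dextrose medium with 3% (T1), 5% (T2) or 8% (T3) glucose. Each concentration gave 1 library, made from RNA of 3 replicates that were pooled before sequencing, so no difference between concentrations has a replicate check and no test between them was made. Members were taken by gene name, by protein match or by transcript identifier (names beginning hta, htb, hht or hhf for histones H2A, H2B, H3 and H4), and 5 entries of the 444 in the deposited tables were found. They are hta1 (H2A), hht1 and hht3 (H3), hhf3 (H4) and a further entry whose best protein match is histone H4 and which carries no gene name. All 5 have a value at 8% and at 3% glucose and none has a value at 5%, so the comparison of T3 with T1 is the one described.

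Core histones are the proteins around which DNA is wrapped in the nucleosome. A tetramer of H3 and H4 forms its centre, and dimers of H2A and H2B bind on either side. New histones are needed when DNA is copied, and in fission yeast histone mRNAs accumulate mainly in S phase. The GATA-type factor Ams2 activates these genes through a short promoter element known as the AACCCT box, and the HIRA histone chaperone holds them down outside S phase.

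The genome assembly ASM294v3 has 9 core histone genes. An entry could be tied by its identifier to 4 of them, and htb1, hta2, hht2, hhf1 and hhf2 have no entry under their name. The unnamed H4 entry has an identifier that belongs neither to hhf2 nor to hhf3. The remaining H4 gene of the assembly, hhf1, has a newer identifier there, so the entry was not assigned to it, although it may be hhf1. The variant genes pht1 (H2A.Z) and cnp1 (the centromeric H3 variant CENP-A) have no entry either.

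Apart from hta2, the core histone genes lie as divergent pairs with their promoters in common: hta1 with htb1, hht1 with hhf1, hht2 with hhf2, and hht3 with hhf3. In ASM294v3 the annotated transcripts of a pair are 177, 132, 134 and 201 bases apart, in that order. The sequence AACCCT, the core of the AACCCT box, stood doubled, as AACCCTAACCCT, in the upstream region of every pair and of hta2. This repeat is called the doubled box below. The 60 bases around it are shown to let the loci be compared, read on the strand that carries AACCCTAACCCT, which is in capitals (RefSeq sequence, ASM294v3). The loci are chrIII:1412276-1412335 (minus strand) for hta1/htb1, chrI:4699628-4699687 (plus) for hht1/hhf1, chrII:1365036-1365095 (minus) for hht2/hhf2, chrII:3529603-3529662 (plus) for hht3/hhf3 and chrI:4053347-4053406 (minus) for hta2.
hta1/htb1: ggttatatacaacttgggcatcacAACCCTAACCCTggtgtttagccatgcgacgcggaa
hht1/hhf1: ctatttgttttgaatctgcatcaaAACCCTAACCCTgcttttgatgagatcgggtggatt
hht2/hhf2: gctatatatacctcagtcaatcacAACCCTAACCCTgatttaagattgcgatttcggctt
hht3/hhf3: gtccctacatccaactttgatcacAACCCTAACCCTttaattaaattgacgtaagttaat
hta2: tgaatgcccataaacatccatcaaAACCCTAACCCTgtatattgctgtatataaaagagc

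Of the 60 aligned positions 16 were the same in all 5 sequences, and these 16 form a single block of 17 bases, ATCANAACCCTAACCCT, with 1 variable position. Outside that block no position was shared by all 5. On the 3 chromosomes, with both strands searched, the 17-base motif occurred 6 times, 5 of them at the histone loci above. The sixth was in the promoter of bdf2, a bromodomain protein gene that has no entry. AACCCTAACCCT occurred 19 times in all, and 13 of these were outside the 17-base motif.

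Promoters were taken as the 250 bases before and 50 bases after each annotated transcript start. The 17-base motif was defined from the 5 histone loci, so all 9 core histone promoters hold it by construction. The genes of a divergent pair share the same site. Among all 5145 promoters of the same length, 0.194% held the motif (10 promoters, histone genes included). The doubled box was present in 20 promoters (0.389%) and a single AACCCT in 501 (9.74%), where a doubled box also counts as single ones. AACCCT was present in 36 of 336 promoters of entries with T3 and T1 values (10.7%). Among those 336, the only promoter with a doubled box outside the histone genes was that of ssa1, a heat shock protein gene with 157.9 FPKM in T3 and 1067 FPKM in T1. Because of how it was defined, the motif could not separate histone promoters with an entry (hta1, hht1, hht3 and hhf3) from those without.

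The whole stretches between the transcripts of hta1 and htb1 (chrIII:1412182-1412358, minus strand) and of hhf1 and hht1 (chrI:4699600-4699731, plus strand) are shown for hta1 and hht1, with the doubled box again in capitals.
hta1/htb1: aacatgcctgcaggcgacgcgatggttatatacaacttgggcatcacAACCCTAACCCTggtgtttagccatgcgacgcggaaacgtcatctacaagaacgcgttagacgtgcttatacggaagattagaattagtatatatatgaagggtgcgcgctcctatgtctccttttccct
hht1/hhf1: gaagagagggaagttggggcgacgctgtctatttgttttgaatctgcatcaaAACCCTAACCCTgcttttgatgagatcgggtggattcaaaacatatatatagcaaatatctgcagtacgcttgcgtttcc

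The doubled box lies 118 bases upstream of the annotated hta1 transcript and 47 bases upstream of htb1 on the other side. It lies 68 bases from hht1 and 52 from hhf1, and 61 bases from hht3. The hhf3 transcript is annotated from its start codon, 128 bases from the box, so its true start is not known from this annotation. The drawing of the loci shows the box between the genes of each pair.

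**Figure D1:**
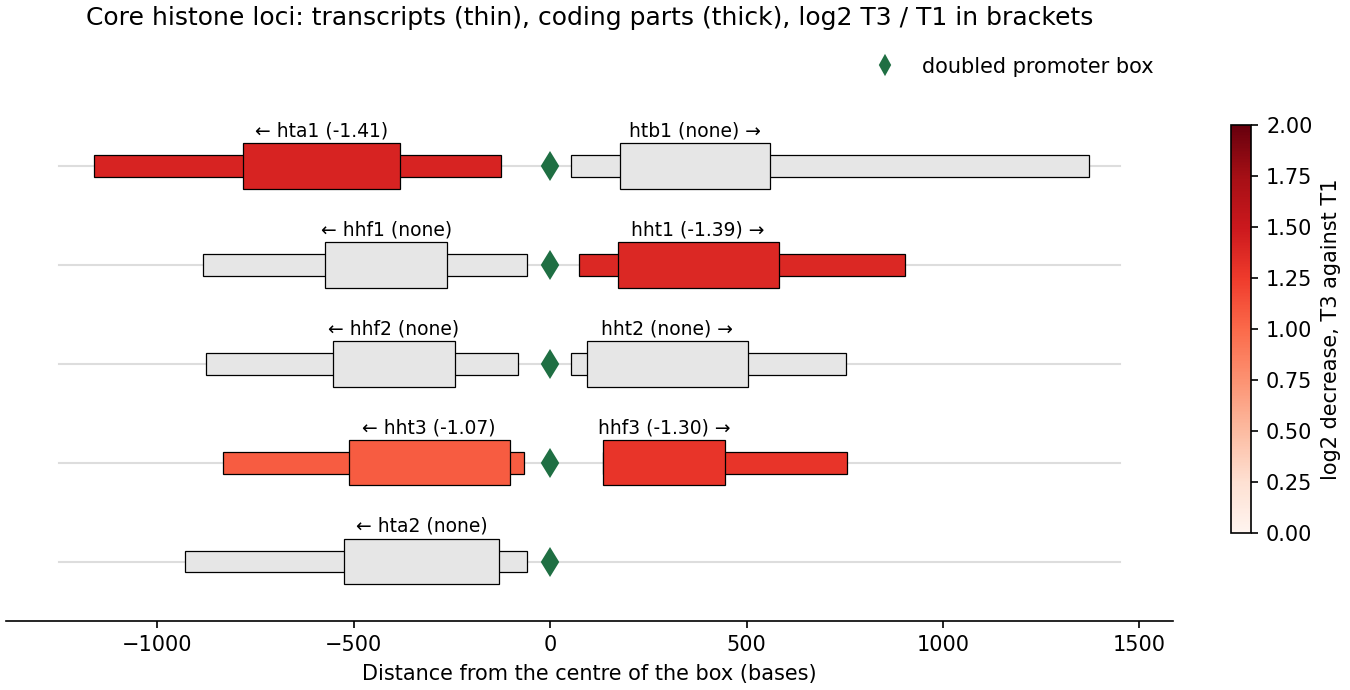
Core histone loci of ASM294v3 drawn to scale, with the x axis giving the distance in bases from the centre of the doubled promoter box (diamond). Thin bars are annotated transcripts, thick bars the coding parts and arrows the direction of transcription. Red marks genes with an entry, shaded by the log2 decrease at 8% (T3) against 3% glucose (T1), which is also given in brackets, and grey marks genes with no entry under their name. Entries tied to a gene stand on both sides of the box only for hht3 and hhf3. The unnamed H4 entry, which may be hhf1, is not drawn.

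All 5 core histone entries were at least 2-fold lower at 8% glucose. The decreases were between 2.11-fold (hht3) and 3.35-fold (the unnamed H4 entry). Levels are given as FPKM (fragments scaled to transcript length and library size), which can be compared between genes because they are per length. A fold is the ratio of 2 FPKM values, and its 95% exact (Clopper-Pearson) interval comes from the rounded counts and covers counting error only, not differences between replicates. Bulk RNA was measured, and levels are relative to the library. Fewer cells that express histone genes, less histone RNA per cell and more RNA of other genes therefore cannot be told apart. Every table entry was listed because the authors had called it, so the size of at least 2-fold was set by the listing. All 5 members were lower in T3, and 34.5% of the 383 entries with T3 and T1 values were at least 2-fold lower (61.4% were at least 2-fold higher).

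H2A is represented by hta1, whose divergent partner htb1 is the only H2B gene of the assembly. The hta1 level was 400.3 FPKM in T3 (95% Poisson interval 384 to 417), against 1067 FPKM in T1 (1040 to 1094). These are 2373 and 6180 counts, and the T3 level was 2.66-fold lower (2.54 to 2.80), a log2 ratio of -1.41. The intervals of the 2 libraries are far apart.

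H3 is encoded by hht1, hht2 and hht3, and the translated coding sequences give the same protein of 136 residues. The hht1 gene had 530 FPKM in T3 (509 to 551), against 1385 FPKM in T1 (1351 to 1419). It was 2.61-fold lower in T3 (2.50 to 2.74), with 2521 and 6425 counts. For hht3, 711 FPKM were measured in T3 (687 to 736), against 1499 FPKM in T1 (1463 to 1535). Its T3 level was 2.11-fold lower (2.02 to 2.20), the smallest decrease among the 5, with 3336 and 6849 counts. At 8% glucose hht3 was thus the most abundant of the 5 entries. Its annotated transcript overlaps that of rav1 by 46 bases, and the methods describe no use of strand that would separate reads from this stretch.

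The H4 genes hhf1, hhf2 and hhf3 likewise encode 1 protein, of 103 residues. The unnamed H4 entry had 583 FPKM in T3 (560 to 607), against 1956 FPKM in T1 (1913 to 1999). It was the most abundant core histone entry at 3% glucose. The T3 level was 3.35-fold lower (3.21 to 3.51), a log2 ratio of -1.75, with 2442 and 7972 counts. The hhf3 gene was the least abundant entry in either library, with 348 FPKM in T3 (329 to 366), against 858 FPKM in T1 (829 to 888). Its decrease was 2.47-fold (2.32 to 2.63), with 1375 and 3301 counts.

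**Figure D2:**
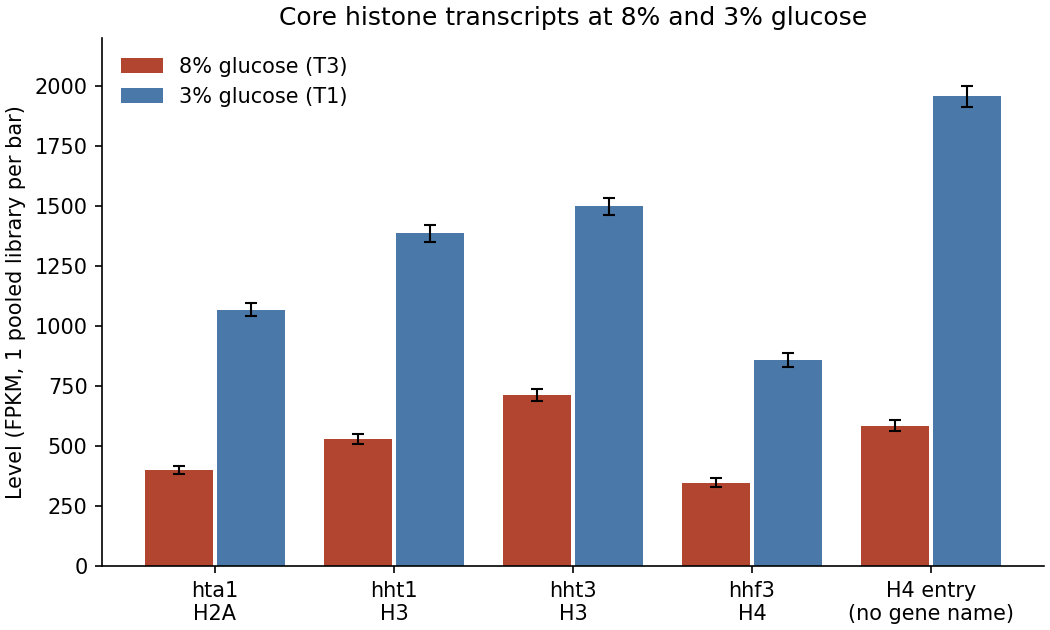
Level in FPKM (y axis, from 0) of the 5 core histone entries at 8% glucose (T3, red, left bar) and 3% glucose (T1, blue, right bar), 1 pooled library per bar, with 95% Poisson intervals of the counts. The T3 bars lie between 348 and 711 FPKM and the T1 bars between 858 and 1956 FPKM, so that the 2 libraries do not overlap.

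The order of the levels differed between the libraries. In T3 the order from the highest was hht3, the unnamed H4 entry, hht1, hta1 and hhf3. In T1 it was the unnamed H4 entry, hht3, hht1, hta1 and hhf3. In neither library did the Poisson intervals of neighbours in the order overlap.

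Summed over the 5 entries, histone transcripts had 12047 counts in T3, against 30727 counts in T1. Relative to library size this was 2.58-fold lower in T3 (95% interval 2.53 to 2.64), on the library scale that the counts and FPKM values imply. For the 2 H3 entries together the sum was 2.30-fold lower (2.23 to 2.37), and for the 2 H4 entries 2.99-fold lower (2.88 to 3.10). In FPKM, H3 entries summed to 1241 in T3, against 2884 in T1, and H4 entries to 930 in T3, against 2814 in T1. The ratio of summed H3 to summed H4 FPKM was 1.33 in T3 and 1.02 in T1. Since 3 genes encode each protein and 2 entries of each have values, this is not the balance of all H3 and H4 transcripts.

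The decreases were not all of the same size. The 10 pairs of members were compared by the difference of their log2 ratios, with a 95% interval for counting error, and the interval was above 0 for 7 pairs. The 3 pairs whose interval held 0 were those among hta1, hht1 and hhf3. The difference of hht1 from hta1 was 0.03 (-0.07 to 0.12), that of hhf3 from hht1 was 0.08 (-0.03 to 0.19) and that of hhf3 from hta1 was 0.11 (-0.004 to 0.22). The unnamed H4 entry showed a larger decrease than every other member, by 0.33 (0.24 to 0.43) relative to hta1 and by 0.67 (0.58 to 0.76) relative to hht3. These intervals do not show whether the differences would recur in other replicates.

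**Figure D3:**
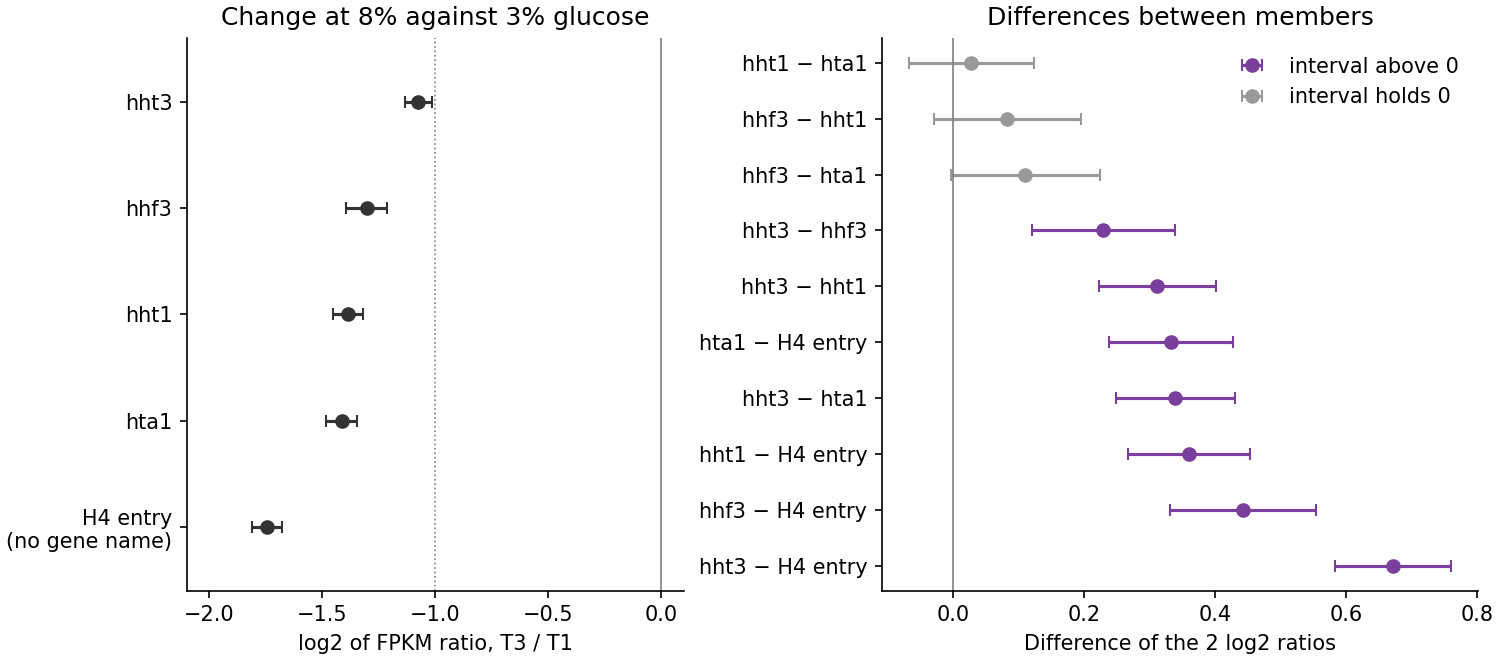
Left, log2 of the FPKM ratio of T3 to T1 for each core histone entry (x axis), with the 95% counting interval, where the dotted line marks a 2-fold decrease. Right, difference between the log2 ratios of each pair of entries (x axis), as the member with the smaller decrease minus the one with the larger. The 7 purple intervals lie above 0 and the 3 grey ones, among hta1, hht1 and hhf3, hold 0.

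At the hht3/hhf3 locus, where both divergent genes have values, hhf3 had the larger decrease. The difference in log2 ratio was 0.23 (0.12 to 0.34), and hht3 stood 2.05-fold above hhf3 in T3 and 1.75-fold above it in T1. The next protein-coding gene beyond hhf3, SPBC1105.13C, was also lower in T3, with 7.19 FPKM, against 20.25 FPKM in T1. This is a 2.82-fold decrease (2.07 to 3.87) on 58 and 160 counts. Its annotated transcript is 854 bases from that of hhf3, and no other protein-coding neighbour of a core histone gene, apart from histone genes, has an entry.

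Coding sequences of the H3 genes differ although the proteins are the same. Those of hht1 and hht3 differ at 30 of 411 bases (92.7% identity), and those of the H4 genes hhf1 and hhf3 at 21 of 312 bases (93.3% identity). The 2 H2A proteins differ more, with 3 differences over 132 aligned residues between hta1 and hta2. Reads that fit more than 1 gene are divided by RSEM and usually leave fractional counts. The counts of all 5 histone entries were exactly whole in T3 and T1, as they were for 91.9% of the 383 entries with values in both, so whole counts do not set the histones apart.

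Among the 383 entries the histones were abundant. The unnamed H4 entry ranked 23rd by FPKM in T3 and 13th in T1, and hhf3, the lowest member, ranked 32nd in T3 and 25th in T1. By size of decrease among the 379 entries with reads in both libraries, the unnamed H4 entry ranked 42nd, hta1, hht1 and hhf3 ranked 68th, 71st and 75th, and hht3 ranked 113th. Their median log2 ratio was -1.39, against -1.45 for all entries at least 2-fold lower in T3 with reads in both libraries and 1.10 for all 379 entries with reads in both.

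Other abundant entries were mostly lower in T3 as well. With a mean over T3 and T1 of at least 603 FPKM, the mean of hhf3, there were 23 entries besides the histones. Of these 18 were at least 2-fold lower in T3 and 5 at least 2-fold higher, with a median log2 ratio of -1.19. All 9 genes of cytosolic ribosomal proteins among them were at least 2-fold lower. Whether the decrease of the histones and that of other abundant transcripts are related was not tested.

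**Figure D4:**
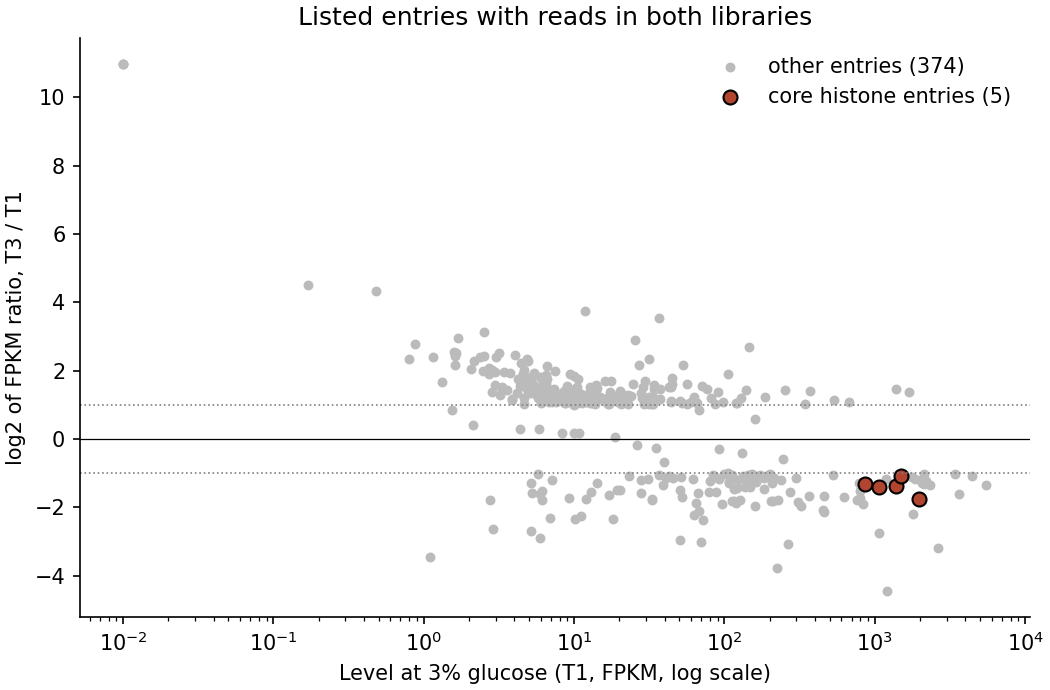
Log2 of the FPKM ratio of T3 to T1 (y axis) against the T1 level in FPKM (x axis, log scale) for the 379 entries with reads in both libraries, each point an entry. Dotted lines mark 2-fold differences. The 5 core histone entries (red) lie at the right, between 858 and 1956 FPKM in T1, and below the lower dotted line.

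Few members of the lists of histone regulators, chaperones and modifying enzymes have an entry. The list of histone gene regulators and S-phase transcription factors has 16 genes, and teb1, which encodes a protein with telobox-type Myb domains, is the only one with an entry. It was 2.12-fold higher in T3 (1.74 to 2.59), with 41.4 FPKM in T3 and 19.6 FPKM in T1. Neither ams2 nor the HIRA subunit genes hip1, hip3, hip4 and slm9 have a value here.

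Of 24 MBF-regulated and other S-phase genes found in the assembly, dut1 alone has an entry. It encodes deoxyuridine triphosphatase, which keeps uracil out of newly made DNA. The dut1 level was 86.5 FPKM in T3, against 307 FPKM in T1, a 3.55-fold decrease (3.14 to 4.03). With 1 entry in each of these lists, no direction can be given for either list.

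No gene has an entry among 23 histone chaperones and nucleosome assembly factors found in the assembly, 14 acetyltransferases and deacetylases, and 13 methyltransferases and demethylases. The tables list called genes only, so this does not show that their transcripts were unchanged. The lists leave out most other subunits of chromatin complexes. Among these, 4 genes picked after their values were seen were at least 2-fold higher in T3. So were 61.4% of the 383 entries with T3 and T1 values. Because of how they were picked, the 4 genes give no direction for genes of this kind. The SAGA subunit gene spt3 had 22.3 FPKM in T3 and 4.06 FPKM in T1, and clr2, of the SHREC deacetylase complex, had 16.2 FPKM in T3 and 5.46 FPKM in T1. For swd3, of the Set1 methyltransferase complex, the log2 ratio was 1.29, and for swc5, of the Swr1 complex that deposits H2A.Z, it was 1.22.

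For each histone, the entries with the closest log2 ratio of T3 to T1 were looked up, a likeness over 2 libraries only. Nearest to hta1 were an unnamed uncharacterized entry, cti1 (an exosome-associated protein), rrp7 (ribosomal RNA processing), mbf1 (multiprotein-bridging factor) and hht1, all within 0.03. Nearest to hht1 were rrp7, the same unnamed entry, hta1 and the ribosomal protein genes rpl4102 and rpl4101, within 0.05. The entries nearest to hht3 were pho842, git11, rpl29, apc10 and the4. Those nearest to hhf3 were rps3001, nrg1, puf5, fhn1 and SPBC56F2.05C, and those nearest to the unnamed H4 entry were SPCC1529.01, rds1, hry1, inv1 and gal10. Their levels ranged widely, from 2.1 FPKM in T3 for nrg1 to 2177 FPKM for rpl4101.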

How the data were processed

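Reads were filtered by the authors with SOAPnuke, aligned to genes with Bowtie and quantified with RSEM. The deposited tables hold RSEM expected counts and, for the same called genes, FPKM computed by the authors. For the authors' alignment, the build was not given in the sources used here. Columns with the authors' fold changes, p-values and FDR were not used. The counts and FPKM imply 5741107 fragments in T1, 5886036 in T2 and 5816339 in T3. Entries were named through ASM294v3 (387 of 444) or by protein match, and the histone members and gene lists were chosen with earlier results of these data known. Named genes were core histones and variants, list members with an entry, protein-coding neighbours, and the 5 entries closest in log2 ratio. ssa1 and bdf2 were named after their sequences were seen.

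Expected counts were rounded for intervals. Ratios, exact intervals, motif searches on both strands and coding sequence comparisons used Python 3.11.15, numpy 2.4.6, pandas 2.3.3, scipy 1.17.1 and Biopython 1.88. Intervals were tested on data simulated with Poisson counting error only, which does not bear on differences between replicates. Differences between log2 ratios used the odds ratio of the 4 counts. With 1 library per concentration there was no test between conditions. Alternatives were other library scalings, a pseudocount, other fold and level thresholds, a length minimum and entries with whole counts.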

Additional observations from a re-analysis of the deposited data

How the results depend on the processing

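Each histone ratio of T3 to T1 was recomputed with counts scaled by gene-mapped reads, by clean reads, or not at all (the last chosen after seeing the data), and with a pseudocount of 1 FPKM. All 20 values stayed within the counting interval of the FPKM ratio, and the decreases ranged from 2.05-fold (hht3, gene-mapped reads) to 3.35-fold (the unnamed H4 entry, pseudocount). Among all 383 entries, 132 were at least 2-fold lower and 235 at least 2-fold higher in T3. A 4-fold threshold cannot raise these numbers, and with it they were 23 and 38. None of the histones is among the 23. With genes of at least 1000 bases only, 83 were lower and 197 higher. A larger share of the lower entries than of the higher ones was thus shorter than 1000 bases. Of the histones only hta1 is at least that long. No paired analysis was possible because each concentration has 1 library. Ratios with the 5% glucose library could not be computed, since no histone entry has a value there, and values from another table do not exist for them. Between 1375 and 7972 counts stood behind each histone value, so counting error was small, and the pooling of replicates leaves their spread unknown.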
